A study of Mus musculus with 12 samples.

Results

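The MHC class I genes described here are 10 of the 47729 rows of the deposited count matrix, taken by their symbols: the classical heavy chains H2-K1 and H2-D1, the nonclassical heavy chains H2-Q4, H2-Q6, H2-Q7, H2-T10, H2-T22, H2-T23 and H2-M3, and the shared light chain B2m. All 10 passed the filter on low counts, as did 15232 genes in all. Messenger RNA came from peritoneal macrophages of C57BL/6 mice that had received either IL-4 complex (IL4c) or thioglycollate (TG), and the adherent cells were kept for 24 h with 20 ug/ml of SPARC or without treatment. The 12 libraries form 4 groups of 3: IL4c with SPARC, IL4c untreated, TG with SPARC and TG untreated. IL4c, a mixture of 5 ug of IL-4 and 25 ug of an antibody to it that prolongs its action, was injected in 2 doses, the later one 2 days before collection. TG, a broth that draws inflammatory cells into the peritoneum, was given once at 3%, 4 days before collection. SPARC is a secreted protein of the extracellular matrix. All groups share the strain, the lavage and the selection by adherence for 2 h, and the labels name no control protein for the untreated wells. They give neither age nor sex and do not state that replicates are separate animals, so p-values measure only the spread between these samples.

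MHC class I molecules display peptides on the cell surface and consist of a heavy chain held by beta-2 microglobulin, the product of B2m. H2-K1 and H2-D1 present peptides cut in the cytosol to CD8 T cells, whereas most nonclassical heavy chains vary less between individuals and are read by natural killer cells, gamma delta T cells or specialised T cells. In many cell types interferons raise class I genes together with the proteasome subunits, peptide transporters and chaperones that load them. Class I promoters can hold interferon response elements, kappa B sites and the X and Y boxes bound by the NLRC5 enhanceosome. The comparison with untreated wells asks whether SPARC changes these genes, in keeping with the study's stated interest in an interferon response.

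Of the 10 members, 9 had a promoter window in the RefSeq table of build GRCm38.p6, and H2-T10 is named only. The 200 bases before the listed start of 6 members are shown, on the strand of the gene, because these genes range from the smallest to the largest response described further on. They lie at chr17:34000334-34000533 (minus strand), chr17:35262894-35263093 (plus), chr17:35424650-35424849 (plus), chr17:36042743-36042942 (minus), chr17:37270034-37270233 (plus) and chr2:122147487-122147686 (plus). Capitals mark matches to 5 motifs, searched on both strands: a kappa B core (GGGATTCCC), an interferon response core (TTTCACTT), a doublet bound by interferon regulatory factors (TTCNNTTTC), an X2 box (TGACGC) and a Y box (ATTGG).
H2-K1: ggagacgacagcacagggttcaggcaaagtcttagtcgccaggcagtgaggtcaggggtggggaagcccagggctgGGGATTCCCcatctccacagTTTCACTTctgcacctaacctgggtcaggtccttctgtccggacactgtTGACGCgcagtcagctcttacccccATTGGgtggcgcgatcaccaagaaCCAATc
H2-D1: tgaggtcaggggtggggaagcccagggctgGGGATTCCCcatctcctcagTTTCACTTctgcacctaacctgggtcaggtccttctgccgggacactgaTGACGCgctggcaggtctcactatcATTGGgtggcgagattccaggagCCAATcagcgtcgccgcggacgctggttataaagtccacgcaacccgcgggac
H2-Q6: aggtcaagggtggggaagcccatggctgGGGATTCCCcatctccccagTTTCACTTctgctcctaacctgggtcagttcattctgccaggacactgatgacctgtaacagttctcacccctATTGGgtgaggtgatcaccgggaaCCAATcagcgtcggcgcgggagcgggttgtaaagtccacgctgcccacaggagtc
H2-T22: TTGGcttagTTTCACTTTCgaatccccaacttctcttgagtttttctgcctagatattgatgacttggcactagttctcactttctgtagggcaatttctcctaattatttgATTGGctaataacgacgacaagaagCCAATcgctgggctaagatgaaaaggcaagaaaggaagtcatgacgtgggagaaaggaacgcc
H2-M3: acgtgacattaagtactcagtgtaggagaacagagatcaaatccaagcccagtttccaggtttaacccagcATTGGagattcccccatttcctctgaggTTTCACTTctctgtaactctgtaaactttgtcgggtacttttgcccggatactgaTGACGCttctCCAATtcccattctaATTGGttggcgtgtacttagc
B2m: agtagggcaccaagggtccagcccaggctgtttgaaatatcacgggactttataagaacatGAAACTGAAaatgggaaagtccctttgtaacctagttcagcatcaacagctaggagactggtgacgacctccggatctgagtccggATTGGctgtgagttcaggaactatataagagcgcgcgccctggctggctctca
The forms of the motifs were chosen after these sequences had been read, and a match is a description of letters, not a site shown to be used. In the 250 bases before the start, the kappa B core was in H2-K1, H2-D1, H2-Q6 and H2-Q7, and in 0.301% of all 32851 windows. The interferon response core was in 7 of the 9 members (H2-K1, H2-D1, H2-Q4, H2-Q6, H2-Q7, H2-T22 and H2-M3) and in 1.36% of all windows. H2-T22, H2-T23 and B2m held the doublet (7.13% of windows), which overlaps the response core in H2-T22 and reads on the opposite strand in B2m. The X2 box was in H2-K1, H2-D1 and H2-M3 (6.12% of windows), and the Y box was in all 9 and in 33.8% of windows. Only these exact letters were counted, so a member without a match can still hold a near form. Near the kappa B core in letters are gggatttccc in H2-Q4 and gggaaagtccc in B2m. Near the X2 box are tgacgt in H2-Q4, H2-Q7 and H2-T22 and tgacga in B2m. These near forms are examples and not a full list. Kappa B match and response core began 19 bases apart in H2-Q7 and 20 in H2-K1, H2-D1 and H2-Q6. H2-K1 and H2-D1 carry the same 4 kinds of match. Whether these matches bear on the responses to SPARC was not tested. H2-K1 has 2 listed starts, of which the one further into the gene was used, and the first Y box of H2-T22 is cut by the printed end.

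**Figure D1:**
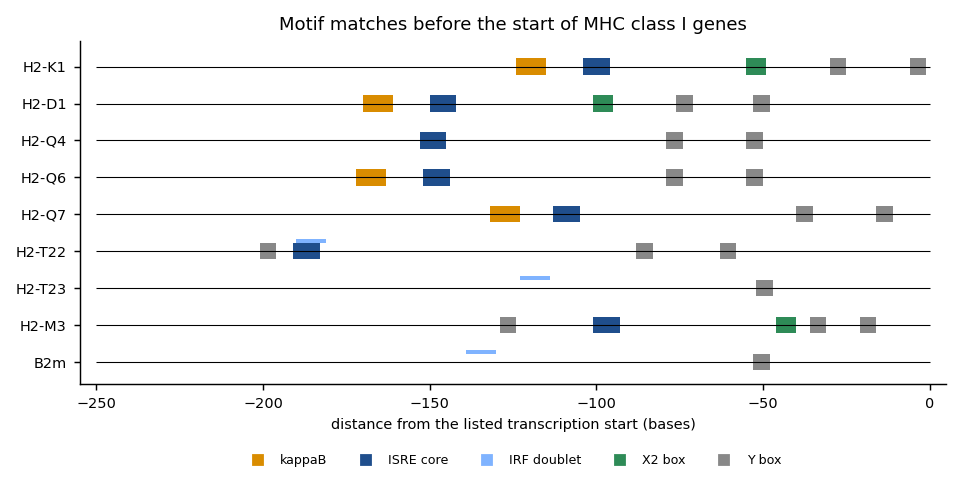
Exact motif matches in the 250 bases before the listed transcription start of 9 MHC class I genes. The horizontal axis is the distance from the start in bases. Coloured boxes are matches on either strand, and near forms of the motifs are not marked. The kappa B match and the interferon response core begin 19 to 20 bases apart in H2-K1, H2-D1, H2-Q6 and H2-Q7, while H2-T23 and B2m hold a doublet and a Y box.

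The heavy chain genes lie on chromosome 17 of GRCm38, from H2-K1 (33996017 to 34000347, minus strand) to H2-M3 (37270220 to 37274484, plus strand), by the GENCODE annotation matched on gene identifiers. H2-Q6 (35424850 to 35430055) and H2-Q7 (35439155 to 35443773) are neighbours on the plus strand, as are H2-T23 (36029773 to 36032855) and H2-T22 (36037128 to 36042747) on the minus strand, and B2m is on chromosome 2 (122147686 to 122153083, plus strand). Several rows share sequence, so reads may be divided between them. Of the 50-base stretches of annotated transcripts, 34.5% of H2-T22, 32.9% of H2-T10, 32.0% of H2-Q6 and 26.4% of H2-Q7 also occur in another gene. The share was 21.8% for H2-Q4, 13.6% for H2-T23, 12.8% for H2-D1, 9.63% for H2-K1, 0.576% for H2-M3 and 0% for B2m. Deposited counts of H2-K1, H2-Q4, H2-Q6, H2-Q7, H2-T10, H2-T22 and H2-T23 were not whole in any of the 12 libraries, as happens when the counting tool splits reads. Those of H2-D1 were not whole in 11 libraries and those of H2-M3 in 2, whereas those of B2m were whole in all. Values of single H2-Q and H2-T genes are therefore uncertain in how they are divided. With smaller shared parts, this also holds for H2-K1 and H2-D1 and for ratios that use them.

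Libraries held 31501941 to 42288785 counts, and the summed macrophage markers stood at 13147 to 18870 CPM (counts scaled to the same library size) in IL4c with SPARC, 20736 to 28020 in IL4c untreated, 30257 to 31171 in TG with SPARC and 22274 to 34872 in TG untreated. Lyz2 stood at 4442 to 9573 CPM in IL4c with SPARC, against 11674 to 20365 in IL4c untreated. It was most of the sum in every group except IL4c with SPARC. The other 8 rows summed to 8705 to 9886 CPM in IL4c with SPARC and 7655 to 9536 in IL4c untreated. In TG macrophages these 8 rows summed to 7116 to 7808 CPM with SPARC and 5291 to 7030 untreated. The TG pair numbered 1 stood apart. Summed markers of B cells, which also carry class I molecules, reached 2227 CPM in TG SPARC replicate 1 and 2947 in TG untreated replicate 1, against 191 to 318 in the other 4 TG libraries. In IL4c libraries the B cell sum was 86.9 to 202 CPM with SPARC and 176 to 455 untreated, and none of its 14 rows was at 0 in any library. The T cell sum, mostly Il7r, was 57.3 to 93.7 CPM in IL4c with SPARC, 94.1 to 137 in IL4c untreated, 49.3 to 439 in TG with SPARC and 61.0 to 875 in TG untreated. Neutrophil markers summed to 26.9 to 41.4 CPM in IL4c with SPARC against 6.96 to 9.82 in IL4c untreated, and to 27.9 to 53.2 in TG with SPARC against 7.09 to 11.7 in TG untreated; most of this was S100a8, and Ly6g did not exceed 1 count. Natural killer markers did not exceed 1.8 CPM in sum, nor Cd3e, a defining T cell marker, 3.32 CPM. The part of other cells in the results below was not tested, and in bulk RNA fewer cells of a type and less RNA per cell cannot be told apart. TG results for the members and the gene lists are also given without the pair numbered 1.

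On the per-length scale (FPKM, in which genes can be compared), B2m was the most abundant member in every group and H2-T10 the least. With SPARC, B2m reached 7104 ± 876 FPKM in IL4c macrophages (SD, n = 3) and 6116 ± 184 in TG macrophages, and ranked 5th and 6th among all rows. The heavy chains with the highest levels were H2-K1 (2515 ± 466 in IL4c with SPARC, 682 ± 35.0 in IL4c untreated) and H2-D1 (2304 ± 239 and 1199 ± 110.2 in the same groups). With SPARC these neighbours in the order lay within their spread in IL4c macrophages, whereas H2-D1 was clearly above H2-K1 in IL4c untreated cells. Next came H2-T23, at 488 ± 114 FPKM in IL4c with SPARC and 123 ± 4.12 in IL4c untreated. H2-T22 (356 ± 61.0), H2-Q7 (351 ± 107), H2-Q4 (239.8 ± 16.9) and H2-Q6 (234 ± 40.5) followed in IL4c with SPARC, the first pair and the second pair each within their spread. Untreated IL4c cells ordered them differently, with H2-T22 at 40.2 ± 4.41, H2-Q4 at 32.6 ± 2.70, H2-M3 at 13.8 ± 0.371, H2-Q7 at 10.4 ± 0.565 and H2-Q6 at 5.47 ± 0.481 FPKM. In TG macrophages with SPARC the order after B2m was H2-D1 (1745 ± 268 FPKM) and H2-K1 (1491 ± 46.0), within their spread of each other, then H2-T23 (381 ± 84.7), H2-T22 (159.8 ± 23.2), H2-Q4 (103 ± 13.1), H2-Q7 (86.7 ± 33.5), H2-Q6 (48.8 ± 24.3), H2-M3 (30.6 ± 1.56) and H2-T10 (7.43 ± 3.60). H2-Q4 and H2-Q7, and H2-Q6 and H2-M3, were neighbours within their spread. In untreated TG cells H2-D1 (1525 ± 167) stood above H2-K1 (689 ± 274), and the H2-Q and H2-T genes other than H2-T23 lay under 50 FPKM on average. By rank among all rows, H2-Q6 stood 345th in IL4c with SPARC and 8029th in IL4c untreated.

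**Figure D2:**
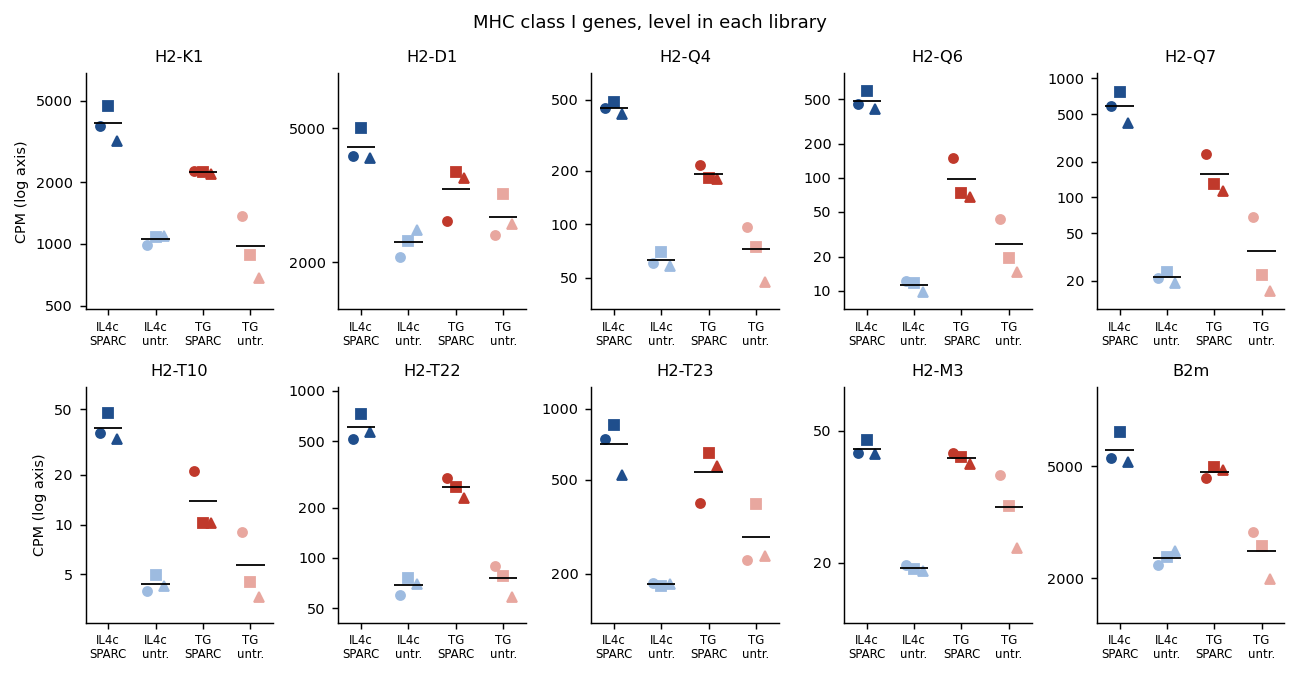
Level of each of the 10 MHC class I genes in every library, in CPM on a log axis that differs between panels; circles, squares and triangles are replicates 1, 2 and 3, lines are group means. In all 10 panels the 3 IL4c libraries with SPARC lie above the 3 untreated IL4c libraries; in TG macrophages the groups overlap for H2-D1.

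In IL4c macrophages all 10 members were higher with SPARC. The levels of H2-D1 were 1.92 times those of untreated cells, the smallest response of the members, and those of H2-Q6 were 43.3 times, the largest. Across all tested genes 15.1% were higher and 12.7% lower with SPARC in this comparison, at an adjusted p under 0.05 (edgeR's quasi-likelihood test, Benjamini-Hochberg). The median log2 fold change was 2.40 over the members and -0.00 over all genes tested. Libraries of the SPARC group lay above all untreated libraries for each member, as they did for 25.5% of all genes, while 24.8% lay wholly below.

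Both classical heavy chains rose, with estimates below those of the nonclassical chains other than H2-M3. H2-K1 stood at 3764, 4697 and 3173 CPM in IL4c libraries with SPARC, against 991, 1086 and 1090.0 CPM in untreated ones. Its log2 fold change was 1.88 ± 0.25 (SE, adjusted p = 6.30e-04), and the groups lay far apart. H2-D1 had 4139.6, 5012 and 4070.1 CPM with SPARC and 2076, 2313 and 2501 untreated. The fold was 0.94 ± 0.19 on the log2 scale (adjusted p = 0.00520), and the lowest treated library was still above the highest untreated one. B2m, the light chain, reached 5351, 6635 and 5188 CPM with SPARC, against 2230.5, 2387 and 2494 without it. This was a log2 change of 1.27 ± 0.18 (adjusted p = 9.66e-04), between those of the classical chains.

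H2-Q6 and H2-Q7 had the largest fold changes of the members. They belong to the genes of the Qa-2 antigens, heavy chains that can be held in the membrane by a lipid anchor. H2-Q6 counted 454, 585 and 411 CPM in IL4c with SPARC, against 12.1, 11.7 and 9.74 CPM in IL4c untreated cells. H2-Q7 had 582, 758 and 419.9 CPM with SPARC and 21.0, 23.7 and 19.2 CPM untreated. Both groups were tight compared with the distance between them. The log2 fold changes were 5.44 ± 0.49 for H2-Q6 (adjusted p = 1.19e-04) and 4.78 ± 0.57 for H2-Q7 (adjusted p = 3.93e-04). Only 0.427% of all tested genes had a larger fold change than H2-Q6. H2-Q4 stood at 449.8, 487 and 417 CPM with SPARC, against 60.5, 70.2 and 58.6 CPM untreated. Its log2 change was 2.84 ± 0.23 (adjusted p = 6.04e-05). When the 7 rows of H2-Q genes other than H2-Q4 were summed, the log2 change of the sum was 4.85 ± 0.53 (adjusted p = 2.55e-04). H2-Q4 shares 9.68% of its 50-base stretches with H2-Q6, and with H2-Q4 added, a sum chosen after the data were seen, the change over the 8 rows was 3.95 ± 0.38 (adjusted p = 1.52e-04).

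Among the H2-T genes, H2-T10 and H2-T22 encode ligands of gamma delta T cells that bind no peptide, and H2-T23 encodes Qa-1, which shows leader peptides of other class I chains to natural killer cells. H2-T22 had 516, 732 and 566 CPM in IL4c with SPARC, against 60.1, 76.4 and 69.5 CPM in IL4c untreated. The log2 change of 3.14 ± 0.20 carried the smallest p of the members (adjusted p = 2.10e-05). H2-T10, an allele-dependent pseudogene in the annotation, had 35.9, 47.3 and 33.0 CPM with SPARC and 3.96, 4.96 and 4.26 CPM untreated. It changed by the same log2 amount, 3.14 ± 0.40 (adjusted p = 5.28e-04), at 20.8 ± 3.72 FPKM with SPARC, far below H2-T22. The summed counts of H2-T10 and H2-T22 gave 3.14 ± 0.21. H2-T23 rose to 739.9, 855 and 521 CPM with SPARC, against 183, 177 and 181 CPM without it. Its log2 change was 1.97 ± 0.27 (adjusted p = 7.39e-04). H2-M3, which presents formylated peptides of bacteria and mitochondria, had 43.0, 46.9 and 42.5 CPM with SPARC and 19.8, 19.1 and 18.9 CPM untreated, a log2 change of 1.20 ± 0.15 (adjusted p = 4.33e-04).

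In TG macrophages 7 of the 10 members were higher with SPARC and none was lower. In the same comparison 6.73% of all genes tested were higher and 4.52% lower by the same rule. The members' median log2 fold change was 1.24, against -0.03 over all genes tested. H2-K1, H2-Q4, H2-Q6, H2-Q7, H2-T22, H2-T23 and B2m passed, and H2-D1, H2-T10 and H2-M3 did not. SPARC libraries lay above all untreated ones for 9 members, as for 16.2% of all genes, and 14.2% lay wholly below.

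H2-K1 had 2265, 2233 and 2201 CPM in TG with SPARC, against 1363, 879 and 685 CPM in TG untreated. The treated libraries were nearly equal, and the untreated ones were spread. The log2 fold change was 1.19 ± 0.24 (adjusted p = 0.0139). H2-D1 had 2659, 3704 and 3559 CPM with SPARC and 2413, 3185 and 2603 CPM untreated. These groups overlapped, and the change of 0.27 ± 0.19 did not pass (adjusted p = 0.396). B2m reached 4537, 4975 and 4845 CPM with SPARC, against 2913, 2603 and 1991 CPM untreated, a log2 change of 0.94 ± 0.18 (adjusted p = 0.0119).

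H2-T22 again had the smallest p, with 301, 265 and 230.1 CPM in TG with SPARC against 90.0, 78.5 and 58.7 CPM in TG untreated. The log2 change was 1.81 ± 0.19 (adjusted p = 7.52e-04). H2-Q4 had 217, 181 and 179 CPM with SPARC and 96.7, 74.8 and 47.6 CPM untreated, a log2 change of 1.40 ± 0.22 (adjusted p = 0.00469). In both genes all treated libraries exceeded all untreated ones. H2-Q6 had 151, 73.4 and 67.2 CPM with SPARC, against 42.9, 19.5 and 14.5 CPM untreated. H2-Q7 had 233, 129 and 113 CPM with SPARC, against 68.4, 22.5 and 16.5 CPM untreated. In both genes, replicate 1 was the highest library of each group, and the groups did not overlap. The log2 changes were 1.92 ± 0.42 for H2-Q6 (adjusted p = 0.0188) and 2.15 ± 0.51 for H2-Q7 (adjusted p = 0.0254). For the 7 summed H2-Q rows the change was 1.97 ± 0.46 (adjusted p = 0.0251), and with H2-Q4 added it was 1.70 ± 0.34 (adjusted p = 0.0139).

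H2-T23 had 399.8, 650.5 and 572 CPM in TG with SPARC and 228, 393 and 238 CPM in TG untreated. The lowest treated library was just above the highest untreated one, and the log2 change was 0.92 ± 0.26 (adjusted p = 0.0478). H2-T10 had 21.3, 10.3 and 10.2 CPM with SPARC, against 9.0, 4.51 and 3.65 CPM untreated. H2-M3 had 43.0, 41.8 and 39.8 CPM with SPARC, against 36.7, 29.6 and 22.2 CPM untreated. Neither gene overlapped between groups, and neither passed, at log2 changes of 1.28 ± 0.37 (adjusted p = 0.0537) and 0.49 ± 0.14 (adjusted p = 0.0549).

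Without both TG libraries numbered 1, 9 members passed, with H2-T10 at 1.35 ± 0.20 (adjusted p = 0.00310) and H2-M3 at 0.68 ± 0.12 (adjusted p = 0.00857). H2-D1 still did not, at 0.35 ± 0.16 (adjusted p = 0.194). In that fit 8.74% of all genes tested were higher and 5.92% lower, against 6.73% and 4.52% with all libraries. The other log2 changes without the pair were 1.52 ± 0.20 for H2-K1, 1.58 ± 0.19 for H2-Q4, 2.07 ± 0.20 for H2-Q6, 2.66 ± 0.28 for H2-Q7, 1.87 ± 0.21 for H2-T22, 0.98 ± 0.27 for H2-T23 and 1.12 ± 0.17 for B2m. The replicate block, which pairs libraries of the same number within an injection, passed the same 9, with H2-T10 at 1.30 ± 0.10 (adjusted p = 2.68e-04) and H2-M3 at 0.52 ± 0.11 (adjusted p = 0.0133). Over all genes the block called 4165 in either direction, against 1714 without it. Leaving out TG untreated replicate 3 left 4 members, and 760 genes in all, past the threshold. H2-Q6 missed it without that library (1.65, adjusted p = 0.0568) or without TG untreated replicate 2 (1.76, adjusted p = 0.0650). H2-Q7 missed it without TG SPARC replicate 1 (1.81, adjusted p = 0.0590), TG untreated replicate 2 (1.90, adjusted p = 0.0803) or TG untreated replicate 3 (1.82, adjusted p = 0.0673), and was largest without TG untreated replicate 1 (3.01, adjusted p = 0.00139). H2-T23 missed it without any 1 of 9 libraries of both injections, most clearly without TG untreated replicate 3 (0.81, adjusted p = 0.159). Without TG untreated replicate 1, H2-T10 (1.76, adjusted p = 0.00956) and H2-M3 (0.68, adjusted p = 0.00592) passed. With TG groups fitted alone only H2-T22 passed, among 458 genes in all. Processing also moved calls. H2-T23 missed the threshold with RLE scaling of libraries (adjusted p = 0.0540), without the low-count filter (0.0640) and on unfiltered FPKM (0.0817). H2-T10 and H2-M3 passed with RLE scaling (adjusted p = 0.0492 and 0.0469), DESeq2 (0.00638 and 0.0135) and a filter of 5 CPM in 3 libraries (0.046 and 0.048). H2-M3 also passed with limma-voom (adjusted p = 0.0471) and without the filter (0.0402).

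Every member had a larger log2 fold change with SPARC in IL4c than in TG macrophages, but none of these differences passed edgeR's test over all genes, and none of the 15232 genes did. The median difference, IL4c response minus TG response, was 1.19 over the members and 0.02 over all genes tested. It was 3.52 ± 0.59 for H2-Q6 (adjusted p = 0.147), 2.63 ± 0.70 for H2-Q7 (adjusted p = 0.230), 1.44 ± 0.30 for H2-Q4 (adjusted p = 0.161) and 1.33 ± 0.26 for H2-T22 (adjusted p = 0.159). The smallest was 0.34 ± 0.25 for B2m (adjusted p = 0.726). At an unadjusted p under 0.05 there were 8 members and 1612 genes (10.6%). With the replicate block 5 members and 472 genes passed. Its differences were 3.45 ± 0.15 for H2-Q6 (adjusted p = 7.17e-04), 1.31 ± 0.11 for H2-T22 (adjusted p = 0.00852), 1.83 ± 0.14 for H2-T10 (adjusted p = 0.00588), 2.39 ± 0.28 for H2-Q7 (adjusted p = 0.0194) and 1.39 ± 0.19 for H2-Q4 (adjusted p = 0.0231). The same 5 passed without both TG libraries numbered 1, where 848 genes passed in all. Their differences there ran from 1.26 ± 0.24 for H2-Q4 (adjusted p = 0.0244) to 3.38 ± 0.26 for H2-Q6 (adjusted p = 9.84e-04). Leaving out 1 library let H2-Q6 pass without TG untreated replicate 1 (2.94, adjusted p = 0.0171) or TG SPARC replicate 1 (3.94, adjusted p = 0.0222), and H2-Q4 without TG untreated replicate 1 (1.19, adjusted p = 0.0418) or TG untreated replicate 3 (1.67, adjusted p = 0.0463). The difference of H2-Q7 was lowest without TG untreated replicate 1 (1.77, adjusted p = 0.0802).

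**Figure D3:**
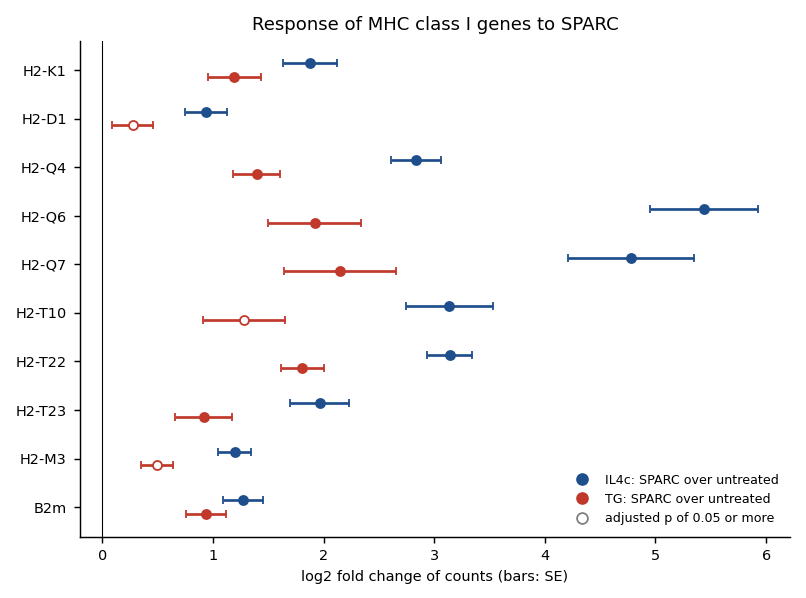
Log2 fold change of counts with SPARC over untreated for each MHC class I gene, in IL4c (blue) and TG (red) macrophages; bars are standard errors of edgeR's fit and open points have an adjusted p of 0.05 or more. H2-Q6 (5.44 in IL4c) and H2-Q7 (4.78) lie furthest right and H2-D1 furthest left in both injections, and each blue point lies to the right of its red point.

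Members changed by unequal amounts within the same libraries, which was tested as the ratio of each member to H2-K1, so that library scaling cancels. An exact permutation test, two-sided, exchanged treatment labels within each injection over 400 arrangements, with a smallest possible p of 0.005. Of the 9 ratios, 7 passed after Benjamini-Hochberg adjustment over the 9. The log2 ratio to H2-K1, SPARC minus untreated averaged over the injections, was lower for H2-D1 (-0.95, exact adjusted p = 0.0112), H2-M3 (-0.70, exact adjusted p = 0.0112) and B2m (-0.45, exact adjusted p = 0.0193). It was higher for H2-Q4 (0.59, exact adjusted p = 0.0193), H2-T22 (0.92, exact adjusted p = 0.0112), H2-Q7 (1.99, exact adjusted p = 0.0112) and H2-Q6 (2.15, exact adjusted p = 0.0180). The ratio of H2-T10 was 0.66 (exact adjusted p = 0.0563) and that of H2-T23 was -0.12 (exact adjusted p = 0.605). H2-Q4 no longer passed without both TG libraries numbered 1 (0.53, exact adjusted p = 0.0643), and H2-T10 passed without TG SPARC replicate 2 or 3 (0.75 and 0.74, exact adjusted p = 0.0394 each). Within 1 injection the design allows no p under 0.1. When labels were exchanged only within the 6 numbered pairs, an alternative chosen after the data were seen whose smallest possible p is 0.0312, 6 ratios passed (exact adjusted p = 0.0469 each). H2-Q4, higher in 5 of 6 pairs, was then not among them (exact adjusted p = 0.0804).

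Per injection these ratios are given as values, without a test. The log2 ratio to H2-K1, SPARC minus untreated, was 3.57 in IL4c and 0.72 in TG for H2-Q6, 2.89 and 1.10 for H2-Q7, 0.98 and 0.20 for H2-Q4, and 1.27 and 0.57 for H2-T22. For H2-T10 it was 1.27 in IL4c and 0.05 in TG, and for H2-T23 0.08 and -0.32. H2-D1 (-0.92 in IL4c, -0.98 in TG), H2-M3 (-0.67 and -0.73) and B2m (-0.60 and -0.30) had negative values in both. In TG macrophages the ratios of treated and untreated libraries overlapped for H2-Q4, H2-Q6, H2-T10, H2-T23 and B2m. In IL4c macrophages they overlapped only for H2-T23.

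On the per-length scale the balance between the classical chains moved with treatment. The FPKM of H2-K1 over that of H2-D1 was 1.13, 1.16 and 0.964 in IL4c with SPARC, against 0.588, 0.582 and 0.541 in IL4c untreated. In TG macrophages it was 1.07, 0.759 and 0.784 with SPARC, against 0.702, 0.346 and 0.331 untreated. The groups did not overlap in either injection, and replicate 1 was the highest of both TG groups. H2-K1 and H2-D1 together made up 73.8 ± 0.963% of the FPKM of the 9 heavy chain genes in IL4c with SPARC and 89.2 ± 0.665% in IL4c untreated. In TG macrophages they made up 79.8 ± 1.59% with SPARC and 86.4 ± 1.41% untreated. Within this sum H2-Q7 held 5.29 ± 0.825% in IL4c with SPARC and 0.492 ± 0.0354% in IL4c untreated, and H2-Q6 held 3.57 ± 0.0714% and 0.261 ± 0.0404% in the same groups. The 10 members took 1.65 ± 0.231% of all counts in IL4c with SPARC and 0.593 ± 0.0393% in IL4c untreated, and 1.17 ± 0.0541% in TG with SPARC against 0.709 ± 0.110% in TG untreated. These sums are descriptions and were not tested.

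**Figure D4:**
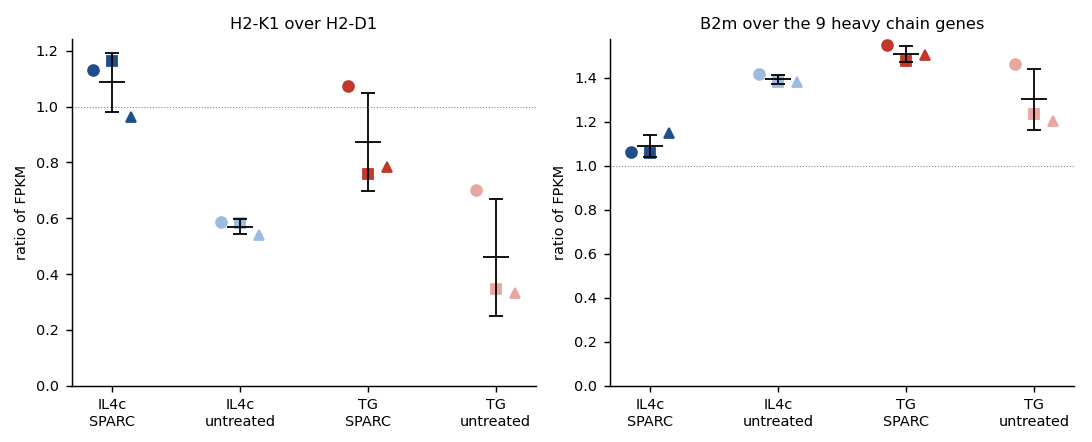
Ratios of FPKM in each library, H2-K1 over H2-D1 at the left and B2m over the sum of the 9 heavy chain genes at the right; circles, squares and triangles are replicates 1, 2 and 3, bars are mean and SD, and the dotted line marks equal values. H2-K1 over H2-D1 is higher with SPARC in both injections (means of 1.09 against 0.570 in IL4c, 0.872 against 0.460 in TG), whereas B2m over the heavy chains is lower with SPARC in IL4c (1.09 against 1.39) and higher in TG macrophages (1.51 against 1.30).

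The injections were compared next. Without SPARC, 1 member was lower in IL4c than in TG macrophages and none was higher, where 10.8% of all genes tested were lower and 10.2% higher. H2-M3 had 19.8, 19.1 and 18.9 CPM in IL4c untreated, against 36.7, 29.6 and 22.2 CPM in TG untreated, with no overlap; IL4c libraries lay wholly below TG libraries for 20.7% of all genes and wholly above for 18.3%. Its log2 change was -0.61 ± 0.15 (adjusted p = 0.0166). The call was lost without TG untreated replicate 2 (-0.61, adjusted p = 0.0522), IL4c untreated replicate 1 (-0.63, adjusted p = 0.0507) or IL4c untreated replicate 2 (-0.57, adjusted p = 0.0557). H2-Q6 (12.1, 11.7 and 9.74 CPM in IL4c untreated, 42.9, 19.5 and 14.5 CPM in TG untreated) did not overlap either, at -1.20 ± 0.42 (adjusted p = 0.0659). It passed when TG SPARC replicate 1 (-1.16, adjusted p = 0.0372), TG untreated replicate 3 (-1.46, adjusted p = 0.0459) or the TG pair numbered 1 (-0.60 ± 0.18, adjusted p = 0.0310) was left out, and with DESeq2 (adjusted p = 0.0192) or total-count scaling (adjusted p = 0.0477). Nor did H2-T23 overlap (183, 177 and 181 CPM in IL4c untreated, 228, 393 and 238 CPM in TG untreated), at -0.67 ± 0.26 (adjusted p = 0.0919). H2-T23 passed with total-count scaling (adjusted p = 0.0414) and without the TG pair numbered 1 (-0.79 ± 0.24, adjusted p = 0.0289). H2-M3 also passed without that pair (-0.42 ± 0.11, adjusted p = 0.0192). Medians were -0.32 over the members and -0.05 over all genes tested.

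With SPARC, 6 members were higher in IL4c than in TG macrophages and none was lower, where 10.9% of all genes tested were higher and 10.1% lower. H2-Q6 had 454, 585 and 411 CPM in IL4c with SPARC and 151, 73.4 and 67.2 CPM in TG with SPARC, a log2 change of 2.31 ± 0.42 (adjusted p = 0.00513). The others were H2-Q7 (1.89 ± 0.50, adjusted p = 0.0256), H2-T10 (1.48 ± 0.37, adjusted p = 0.0196), H2-Q4 (1.23 ± 0.21, adjusted p = 0.00398), H2-T22 (1.19 ± 0.19, adjusted p = 0.00253) and H2-K1 (0.80 ± 0.24, adjusted p = 0.0413). None of the 6 overlapped between the injections, nor did H2-D1 and B2m. IL4c libraries lay wholly above for 20.8% of all genes and wholly below for 20.6%. H2-D1 (0.41 ± 0.19, adjusted p = 0.139), H2-T23 (0.38 ± 0.26, adjusted p = 0.308), B2m (0.26 ± 0.18, adjusted p = 0.326) and H2-M3 (0.09 ± 0.14, adjusted p = 0.704) did not pass. Medians were 0.99 over the members and -0.03 over all genes tested. H2-K1 missed the threshold without any 1 of 9 libraries, down to 0.64 without IL4c SPARC replicate 2 (adjusted p = 0.141), and also with limma-voom (adjusted p = 0.0589), total-count scaling (adjusted p = 0.0594) and the 3 fits to log2 FPKM (adjusted p = 0.0528 to 0.0907). H2-T10 missed it without that library (1.31, adjusted p = 0.0696), TG SPARC replicate 2 (1.32, adjusted p = 0.0656) or TG SPARC replicate 3 (1.33, adjusted p = 0.0607). H2-Q7 missed it without TG SPARC replicate 2 (1.78, adjusted p = 0.0814), TG SPARC replicate 3 (1.73, adjusted p = 0.0807), IL4c SPARC replicate 1 (1.89, adjusted p = 0.0625) or IL4c SPARC replicate 2 (1.66, adjusted p = 0.0821). All 6 passed without the TG pair numbered 1, with H2-K1 at 0.80 ± 0.18 (adjusted p = 0.00891). In that fit 5521 genes passed in either direction, against 3196 with all libraries.

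Genes that supply peptides to class I molecules moved the same way. Of 13 listed genes of the immunoproteasome, its activator, the peptide transporter and the loading chaperones, 12 rose with SPARC in IL4c macrophages and 10 in TG macrophages, and none fell. Their median log2 fold changes were 1.53 and 0.94, against the medians near 0 over all genes. Of all genes tested 15.1% rose and 12.7% fell in IL4c macrophages, and 6.73% rose and 4.52% fell in TG macrophages. Psmb8, an immunoproteasome subunit, averaged 227 ± 18.7 CPM in IL4c with SPARC and 50.3 ± 1.68 CPM in IL4c untreated (SD, n = 3 each), a log2 change of 2.18 ± 0.21 (adjusted p = 1.56e-04). Tapbp, the tapasin that bridges heavy chains to the transporter, averaged 1383 ± 119.5 CPM with SPARC and 367 ± 40.7 CPM untreated in IL4c cells, at 1.91 ± 0.21 (adjusted p = 2.50e-04). Erap1, which trims peptides in the endoplasmic reticulum, changed by 1.53 ± 0.17 (adjusted p = 2.74e-04) and Psme2, a proteasome activator subunit, by 2.01 ± 0.23 (adjusted p = 3.54e-04). In TG macrophages the same 4 rose, by 1.35 ± 0.21 for Psmb8 (adjusted p = 0.00446), 1.56 ± 0.21 for Tapbp (adjusted p = 0.00236), 0.71 ± 0.17 for Erap1 (adjusted p = 0.0243) and 1.41 ± 0.23 for Psme2 (adjusted p = 0.00580). Canx, a chaperone of the early heavy chain, did not pass in either (-0.03 ± 0.09 in IL4c, adjusted p = 0.839, and 0.26 ± 0.09 in TG, adjusted p = 0.108). Psmb9 (1.02 ± 0.29, adjusted p = 0.0502) and Tapbpl (0.86 ± 0.32, adjusted p = 0.117) did not pass in TG macrophages. Without the TG pair numbered 1, 8 of the 13 rose in TG macrophages and none fell, with a median of 1.06, where 8.74% of all genes tested rose and 5.92% fell.

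Of 13 regulators of class I transcription, 3 rose and 1 fell in IL4c macrophages, and 2 rose in TG macrophages. Over all genes tested 15.1% rose and 12.7% fell in IL4c, and 6.73% rose in TG, so the IL4c counts are near the background. Nlrc5, the activator of class I promoters, had 86.2, 103 and 93.6 CPM in IL4c with SPARC, against 37.5, 51.5 and 41.6 CPM in IL4c untreated. In TG macrophages it had 144, 191 and 171 CPM with SPARC, against 85.4, 102 and 31.4 CPM untreated. Its log2 changes were 1.12 ± 0.34 (adjusted p = 0.0358) in IL4c and 1.21 ± 0.34 (adjusted p = 0.0499) in TG. Without the TG pair numbered 1 it did not pass there (1.46 ± 0.44, adjusted p = 0.0596). In that fit 2 regulators rose and 1 fell, where 8.74% of all genes tested rose and 5.92% fell. Rfxap, part of the X box complex, rose by 0.36 ± 0.10 in IL4c macrophages (adjusted p = 0.0250). Creb1, which can bind the X2 box, fell there, at -0.48 ± 0.10 (adjusted p = 0.00565).

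None of 10 listed MHC class II genes passed in either SPARC comparison, and their median log2 changes were -0.27 in IL4c and -0.21 in TG. This does not show that they were unchanged. In IL4c macrophages libraries with SPARC lay wholly below untreated ones for H2-Aa, H2-Eb1 and H2-DMa, and wholly above for H2-Ab1. H2-Eb1 had 71.9, 74.7 and 59.8 CPM with SPARC against 119, 121 and 116 untreated. H2-Ab1 had 298, 261 and 202 CPM with SPARC against 199, 162 and 170 untreated. Of all genes, 24.8% lay wholly below and 25.5% wholly above in IL4c. Ciita, the class II counterpart of Nlrc5, averaged 13.8 ± 4.96 CPM in IL4c with SPARC and 15.6 ± 1.84 CPM in IL4c untreated, at -0.17 ± 0.57 (adjusted p = 0.856). In TG macrophages it averaged 45.9 ± 11.3 CPM with SPARC and 52.3 ± 46.6 CPM untreated, at -0.19 ± 0.57 (adjusted p = 0.877). Class II counts followed the TG pair numbered 1, whose class II sums were 3910 CPM with SPARC and 7631 CPM untreated, against a range of 1413 to 1890 CPM over the remaining TG libraries. Without that pair none of the 10 passed in TG macrophages either, and the TG median was 0.28, with Ciita at 0.62 ± 0.46 (adjusted p = 0.431). For Ciita the SE of 0.57 in the full fit spans changes of either sign.

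Of 11 further class I and class I-like genes with enough counts, 7 rose and 1 fell in IL4c macrophages, and 3 rose and 1 fell in TG macrophages. Over all genes tested 15.1% rose and 12.7% fell in IL4c, and 6.73% rose and 4.52% fell in TG. The counts of 1 fallen gene are thus near the background. H2-T24 rose by 2.76 ± 0.25 in IL4c (adjusted p = 1.33e-04) and 1.57 ± 0.24 in TG (adjusted p = 0.00477). H2-Q5, which like H2-T10 is an allele-dependent pseudogene in the annotation, changed by 3.31 ± 0.46 in IL4c (adjusted p = 9.05e-04) and 1.44 ± 0.43 in TG (adjusted p = 0.0607). H2-Q2 was low, at 0.610 ± 0.178 CPM in IL4c with SPARC and 0.0708 ± 0.0475 CPM in IL4c untreated (adjusted p = 0.00258). Fcgrt, whose product carries antibodies and albumin through cells and pairs with beta-2 microglobulin, went the other way. It averaged 21.4 ± 4.15 CPM with SPARC and 87.5 ± 21.4 CPM untreated in IL4c cells, at -2.03 ± 0.42 (adjusted p = 0.00639), and 19.7 ± 3.96 against 79.7 ± 53.1 CPM in TG cells, at -2.01 ± 0.42 (adjusted p = 0.0160). Among 8 tested receptors of class I molecules, only Klra2, a Ly49 receptor, passed, in IL4c macrophages (2.91 ± 0.89, adjusted p = 0.0345). That count of receptors is near the share of all genes that rose in IL4c. Without the TG pair numbered 1, 6 of the 11 further genes rose and 1 fell in TG macrophages, and 1 of the 8 receptors rose. In that fit 8.74% of all genes tested rose and 5.92% fell. H2-Q5 then passed (1.77 ± 0.18, adjusted p = 7.20e-04) and Fcgrt stood at -1.16 ± 0.30 (adjusted p = 0.0352).

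**Figure D5:**
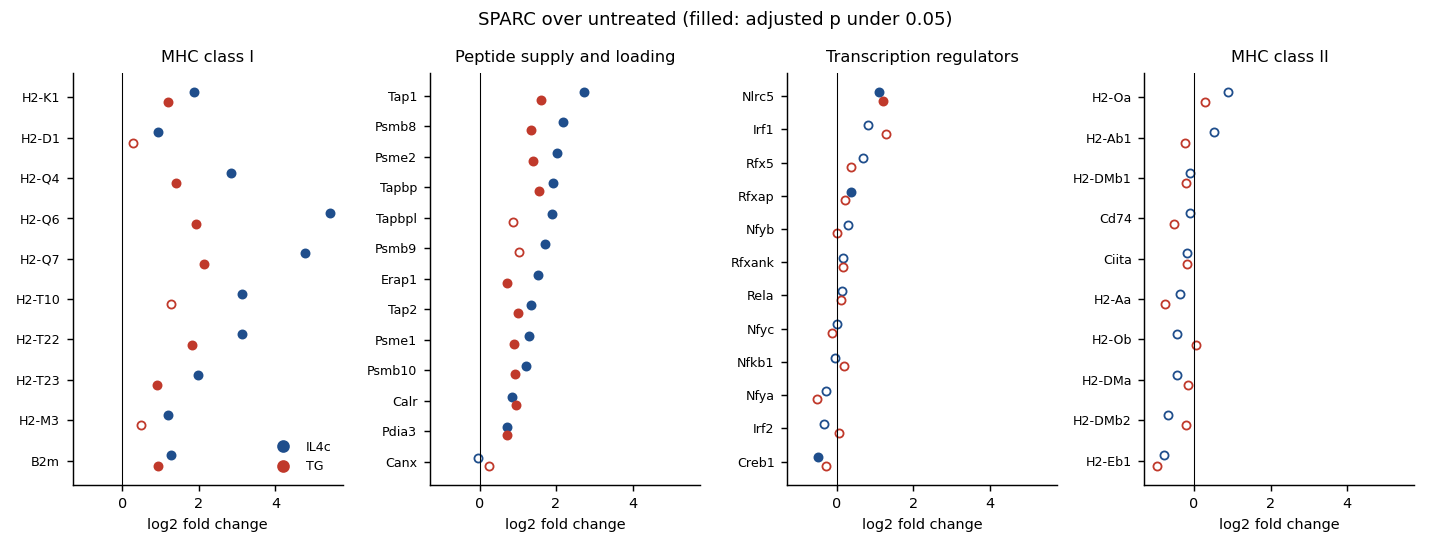
Log2 fold change with SPARC over untreated for the 10 MHC class I genes, 13 genes of peptide supply and loading, 12 of the 13 transcription regulators and 10 MHC class II genes, in IL4c (blue) and TG (red) macrophages; filled points have an adjusted p under 0.05. Filled points of class I and peptide loading genes lie to the right of 0, and none of the class II points is filled.

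The genes most like a member in pattern were named by the root-mean-square difference of log2 CPM over the 12 libraries, each gene centred on its own mean, among 8598 genes of at least 10 CPM. For H2-K1 they were Gm20559 (0.17), Gm43197 (0.21) and Ifih1 (0.22), the last a sensor of double-stranded RNA. For H2-T22 they were Phf11b (0.22), Phf11a (0.27) and Ddx60 (0.28). For H2-M3 they were Shisa5 (0.14), Irf9 (0.14), part of the factor that binds interferon response elements, and Arhgap27 (0.15). For B2m they were Trim12c (0.12), Ogfr (0.13) and the processed pseudogene Gm6548 (0.14). Among members, H2-T22 lay closest to H2-Q4 (0.21) and far from H2-D1 (1.01), while H2-D1 lay as close to H2-M3 as to B2m (0.32 each).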

How the data were processed

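Polyadenylated RNA of 12 libraries was analysed. The authors deposited expected counts per gene (estimated counts, unscaled, 7.97% of values not whole) and FPKM, in which the authors corrected for library size and gene length. Per the submitters' processing notes, CASAVA and bcl2fastq 1.8.4 were used, along with STAR and RSEM; for build, annotation and strand setting, nothing is given in the sources used here. RSEM divides reads between similar genes, which bears on the H2-Q and H2-T rows and also on H2-K1 and H2-D1.

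Counts were rounded and fitted with edgeR 4.0.16 in R 4.3.3 (quasi-likelihood, robust, TMM scaling, filterByExpr with a minimum count of 10). All 12 libraries in 4 groups gave 8 residual degrees of freedom, and p-values were adjusted by Benjamini-Hochberg over 15232 genes, with 0.05 as threshold. CPM use TMM-scaled library sizes. Each SE is the size of the log2 fold change over the root of its F statistic. Identifiers matched GENCODE without version for 98.9% of rows, and for 81.9% with it. Members and gene lists were chosen with earlier results of these data known. All members, up to 4 genes per list with the smallest p among those called in IL4c macrophages, and Nlrc5 and Ciita are named, except 1 regulator that is not reported here; Canx, Psmb9 and Tapbpl were chosen after their values were seen, as were the markers. Libraries of the same number in the same injection deviated together from their group means (r = 0.342 to 0.735 in all 6 pairs), so numbers pair libraries within an injection, by the data alone; across injections r was -0.178 to 0.250. No 2 libraries of a group were copies.

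Alternatives were DESeq2 1.42.0, limma-voom, limma-trend on log2 FPKM (limma 3.58.1, pseudocounts of 1 and 0.1), scaling by RLE or by total counts, other filters, the compared groups alone, the replicate block, summed rows, exchange within pairs and left-out libraries.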

Additional observations from a re-analysis of the deposited data

Results flagged for a closer look

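The FPKM of B2m over the summed FPKM of the 9 heavy chain genes moved in opposite directions with SPARC in the 2 injections, with no overlap between groups in either. In IL4c macrophages it was 1.06, 1.06 and 1.15 with SPARC, against 1.42, 1.38 and 1.38 untreated, a difference of means of -0.304. In TG macrophages it was 1.55, 1.48 and 1.50 with SPARC, against 1.46, 1.24 and 1.21 untreated, a difference of means of 0.208. In TG macrophages the lowest library with SPARC (1.48) was just above the highest untreated one (1.46), which is replicate 1. A search of the described sums, shares and ratios kept only quantities with this pattern. The opposite directions and the lack of overlap are therefore the rule of choice and no separate support. The difference between the injections was not tested, since the ratio is a description of a sum over chosen genes.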

How the results depend on the processing

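In IL4c macrophages all 251 alternative values of single members kept the direction and stayed past the threshold. Over all comparisons, 1273 of 1380 values kept direction and side of the threshold, 50 no longer passed, 44 newly passed and 13 changed sign. In TG macrophages the number of members higher with SPARC was 7, and 1 with the compared groups fitted alone; leaving out 1 library gave 4 to 8. For IL4c over TG with SPARC, leaving out 1 library gave 3 to 6 members higher (3 without TG SPARC replicate 2, TG SPARC replicate 3 or IL4c SPARC replicate 2), and with H2-Q4 summed with the other H2-Q genes 3 of the 7 features left were higher. For IL4c over TG untreated, members lower were 3 with total-count scaling, 2 with DESeq2 and 0 with the compared groups alone. They were 3 without both TG libraries numbered 1, and 0 to 2 without 1 library. A block by replicate number gave 2. For this contrast it spanned the injections, across which same-numbered libraries did not pair (r = -0.178 to 0.250). For the difference of the SPARC responses, members higher were 5 with DESeq2, 5 with the replicate block, 5 without both TG libraries numbered 1, and 0 to 2 without 1 library. Ratios to H2-K1 that passed numbered 7 to 8 without 1 library and 6 with the exchange within pairs (replicate block). The cause was not tested.

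Signs changed in IL4c over TG untreated for H2-K1 under total-count scaling (-0.0102), and without both TG libraries numbered 1 for H2-Q4 (0.0524), H2-Q7 (0.138), H2-T10 (0.116), H2-T22 (0.0103) and B2m (0.0550). Without 1 library, log2 changes ranged from -0.0627 to 0.442 for H2-K1, -0.420 to 0.0524 for H2-Q4, -1.06 to 0.138 for H2-Q7, -0.596 to 0.116 for H2-T10, -0.274 to 0.0103 for H2-T22 and -0.197 to 0.0550 for B2m, the last 5 positive only without TG untreated replicate 1 and H2-K1 negative only without TG untreated replicate 3. The log2 ratio of H2-T23 to H2-K1 ranged from -0.327 to 0.0266. None of these had passed.

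Over all genes, the TG comparison called 1714, and 2632 with DESeq2, 4165 with the block, 458 with groups alone and 1001 on unfiltered FPKM. The IL4c comparison called 4237, and 6880 with the block and 6458 without both TG libraries numbered 1. For IL4c over TG untreated the counts were 3197, 1586 with groups alone and 5904 without that TG pair, and with SPARC 3196 and 5521. The difference of responses called 0, and 364 with DESeq2, 472 with the block, 848 without that TG pair, and 2 to 38 under total counts, other filters and FPKM. Total counts gave 758 higher and 938 lower genes in TG, against 1025 and 689 by TMM; in IL4c over TG untreated they gave 1154 and 2790, against 1548 and 1649, and moved the median of all genes to -0.16, against -0.05.

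At these depths 3 counts correspond to 0.0707 to 0.0974 CPM, below every member.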
